A study of Mus musculus with 6 samples.

Results

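The 60 genes described here encode proteins of mitosis: the kinases and checkpoint proteins that time it, the centromere and kinetochore that hold chromosomes to microtubules, the kinesins that build and move the spindle, condensin, and the cyclins and anaphase regulators. They were chosen by a list of gene symbols, drawn up with earlier results of these data known, and all 60 were found among the 24786 gene symbols of the expression table. The shugoshin genes *Sgol1* and *Sgol2a* are listed there under their other names, *Sgo1* and *Sgo2a*. In mitosis, Cdk1 with its cyclins drives condensation of the chromosomes and assembly of a bipolar spindle, and kinetochores built on Cenpa chromatin attach each chromosome to spindle microtubules. Unattached kinetochores hold back the anaphase-promoting complex through the spindle checkpoint, and once that is lifted, cyclin B and securin are destroyed and the chromatids part. Many of these mRNAs are made mostly in G2 and mitosis, so that cells outside the cycle carry little of them.

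The RNA came from Raw264.7 cells, a mouse macrophage line established from an Abelson leukemia virus tumor, that had been infected with lentivirus. The virus carried either a non-targeting shRNA in 3 libraries, named sh-NC, or one that targets *Etv5* in 3 libraries, named sh-*Etv5*. *Etv5* encodes an ETS family transcription factor. The labels give strain C57BL/6 and postnatal day 21 for both groups. These are printed as labelled, while the study's methods name that strain only for its mice and not for this cell line. The labels also give growth in logarithmic phase, and measurement at 24 or 48 hours after infection. According to the study, however, the sequenced cells were stably transfected, and its methods describe passages under puromycin for shRNA cells, so that the time from infection to sequencing is not settled by these sources. Both groups thus carry a lentiviral vector and share the line's tumor origin. The sources do not name which shRNA was sequenced or whether the libraries came from separate infections, so that n counts libraries and p-values measure only the spread between them, which may be technical.

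Expression is given as RPKM, that is reads scaled to gene length and to the mapped reads of the library, as the authors computed it. Genes were compared on the log2(RPKM + 1) scale with limma over the 10738 genes that reached 1 RPKM in 3 or more libraries, and a gene was called higher or lower at a Benjamini-Hochberg adjusted p under 0.05. All 60 mitosis genes passed that filter. *Etv5* itself read 9.18, 9.89 and 9.39 RPKM in control and 5.19, 4.91 and 5.28 RPKM in knockdown libraries, a log2 fold change of -0.78 (SE 0.0565, limma adjusted p = 2.74e-07). The knockdown left 54.0% of the control level. Of 10 macrophage markers, 9 were tested, of which 4 were higher, 4 lower and 1 not called, where 33.3% of all genes tested were higher and 41.0% lower, and *Mertk* was near 0 in every library. Their summed level was 4490 to 4616 RPKM in sh-NC and 3587 to 3704 RPKM in sh-*Etv5* cells, most of it from *Lyz2*, which kept 72.0%, while *Adgre1* and *Itgam* stood at 435% and 377% of control. The part of these markers in the results was not tested. None of 24 markers of fibroblasts, lymphocytes, granulocytes and epithelium passed 0.365 RPKM in any library.

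Before the levels are given, the promoters of a few of the genes are shown, because many mitotic promoters share a pair of short elements. The cell cycle genes homology region (CHR) is bound by complexes around the MuvB core, which in turn recruit FoxM1, and the CCAAT box is bound by NF-Y. The stretches below are the 100 bases before the transcription start listed by RefSeq (GRCm38.p6), written 5′ to 3′ on the gene's own strand. Capitals mark each CHR match (TTTGAA or TTCGAA, either strand, so also TTCAAA) and each CCAAT match (either strand, so also ATTGG). *Kif11*, *Prc1*, *Ube2c*, *Cdc20* and *Top2a* are shown as genes that fell strongly and hold both elements, and *Cenpt* and *Cenpq* as the members that did not fall. They were picked after the matches and values were seen.
Kif11 (chr19:37376282-37376381, plus strand): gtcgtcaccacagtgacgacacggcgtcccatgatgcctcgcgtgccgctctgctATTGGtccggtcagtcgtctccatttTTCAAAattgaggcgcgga
Prc1 (chr7:80294376-80294475, plus strand): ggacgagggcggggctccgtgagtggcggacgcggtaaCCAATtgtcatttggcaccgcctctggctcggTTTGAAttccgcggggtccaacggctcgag
Ube2c (chr2:164769829-164769928, plus strand): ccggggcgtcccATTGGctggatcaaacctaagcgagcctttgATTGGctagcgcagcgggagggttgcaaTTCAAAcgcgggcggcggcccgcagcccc
Cdc20 (chr4:118437344-118437443, minus strand): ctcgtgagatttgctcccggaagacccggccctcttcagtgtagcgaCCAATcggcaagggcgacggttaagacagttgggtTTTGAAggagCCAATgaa
Top2a (chr11:99024190-99024289, minus strand): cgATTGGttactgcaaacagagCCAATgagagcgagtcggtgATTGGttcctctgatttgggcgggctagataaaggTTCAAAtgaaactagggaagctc
Cenpt (chr8:105852009-105852108, minus strand): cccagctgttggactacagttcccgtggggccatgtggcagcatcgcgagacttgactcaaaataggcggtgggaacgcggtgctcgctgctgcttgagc
Cenpq (chr17:40934575-40934674, minus strand): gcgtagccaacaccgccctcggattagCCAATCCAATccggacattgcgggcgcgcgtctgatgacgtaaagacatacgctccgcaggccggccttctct

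The CHR match of these 5 falling genes began 19, 30, 29, 18 and 23 bases before the start in *Kif11*, *Prc1*, *Ube2c*, *Cdc20* and *Top2a*, and each of the 5 had at least 1 CCAAT match upstream of it in the same 100 bases. *Cenpq* held a pair of adjoining CCAAT matches, 73 and 68 bases before its start, and no CHR. *Cenpt* held neither element. RefSeq and GENCODE release M21 place some starts differently. The *Cenpt* and *Cenpq* stretches lie wholly inside the GENCODE gene, and those of *Ube2c*, *Prc1* and *Cdc20* reach into it, in *Ube2c* with the whole CHR match and in *Prc1* with the end of it.

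The mitosis genes fell almost as a whole in sh-*Etv5* cells. Of the 60, 58 were lower, 1 was higher (*Cenpt*) and 1 was not called (*Cenpq*), where 41.0% of all genes tested were lower and 33.3% higher. For the same 58 genes every sh-*Etv5* library was below every sh-NC library, a pattern that 42.1% of all genes tested showed. The size of the fall set them further apart: 54 of 60 were lower with a log2 fold change below -0.5 and 32 of 60 below -1, against 15.0% and 3.0% of all genes tested. At the median, their log2 fold change was -1.02, where that of all genes tested was -0.05.

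In terms of level, the median mitosis gene kept 46.6% of its sh-NC RPKM, and the genes ranged from 30.2% (*Birc5*) to 113% (*Cenpt*). Summed over the 60 genes, the libraries held 2242, 2238 and 2273 RPKM in sh-NC and 1023, 1039 and 1047 RPKM in sh-*Etv5* cells. This was 0.694% to 0.709% of all RPKM in the control libraries and 0.305% to 0.314% in the knockdown libraries. The libraries within a group thus differed by far less than the groups. In bulk RNA, fewer cells in mitosis and less of each mRNA per cell cannot be told apart, and the files hold no count of cells or of cell cycle phases.

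**Figure D1:**
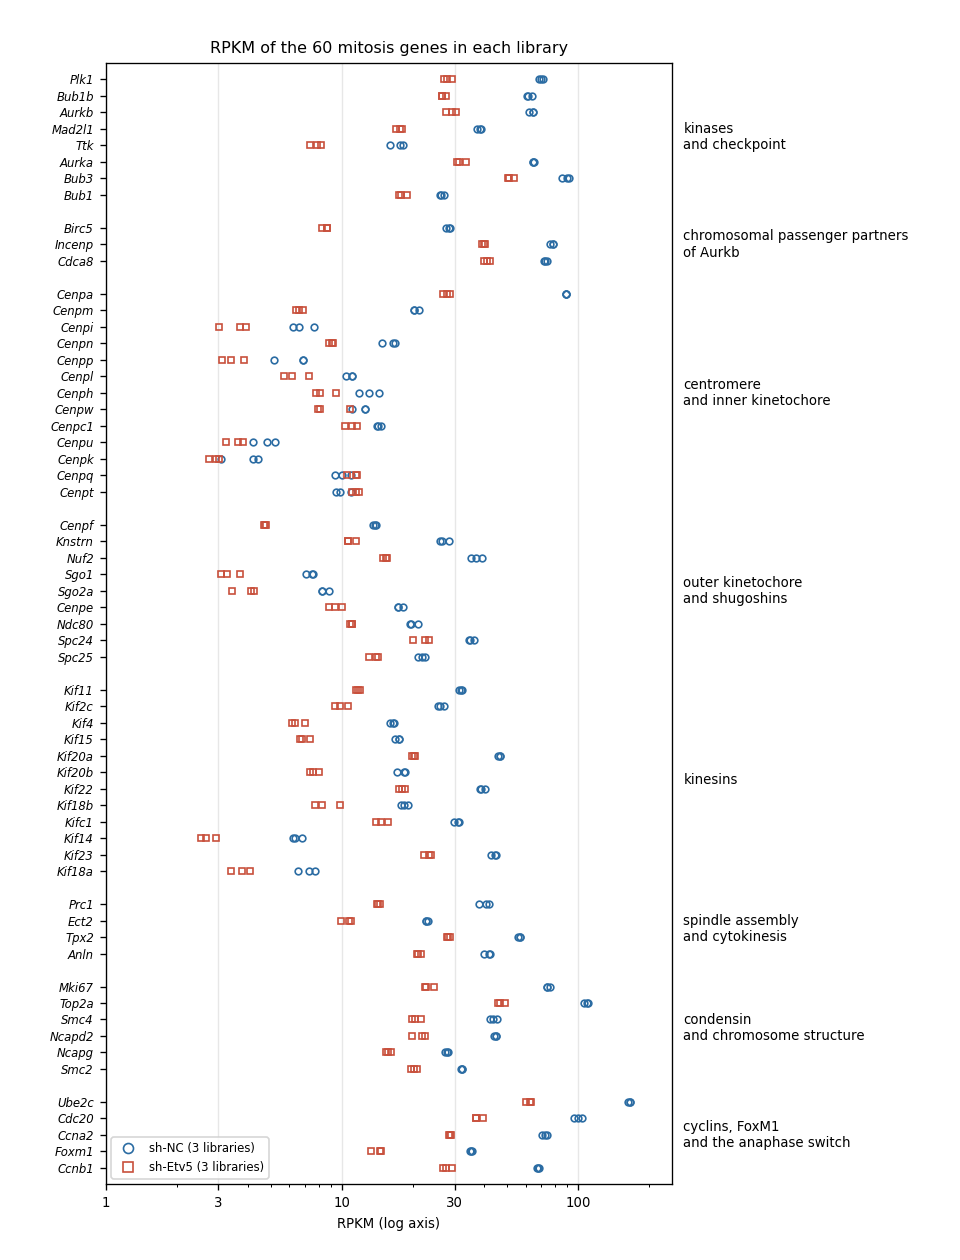
RPKM (log axis) of each of the 60 mitosis genes in the 3 sh-NC libraries (blue circles) and the 3 sh-*Etv5* libraries (red squares), by role and, within a role, from the strongest fall down. In 58 genes all red squares lie to the left of all blue circles, while those of *Cenpq* mix and those of *Cenpt* lie to the right.

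Kinases and checkpoint proteins all fell (8 of 8, median log2 fold change -1.07, 45.7% of control kept at the median). *Plk1*, the polo kinase that acts from mitotic entry to cytokinesis, read 69.7, 68.5 and 71.4 RPKM in sh-NC and 27.9, 29.3 and 27.0 RPKM in sh-*Etv5* cells. Its libraries did not overlap between groups, and it kept 40.2% of its control level (log2 fold change -1.29, SE 0.0403, limma adjusted p = 3.23e-10). *Bub1b*, which encodes the checkpoint protein BubR1 that binds Cdc20, read 60.8, 61.6 and 63.6 RPKM against 26.5, 27.7 and 26.6 RPKM. It kept 43.4% (log2 fold change -1.17, limma adjusted p = 3.78e-10). *Aurkb*, the kinase that corrects faulty attachments at the centromere, read 64.4, 62.0 and 64.6 RPKM against 30.4, 27.5 and 29.3 RPKM, and kept 45.7% (log2 fold change -1.10, limma adjusted p = 1.76e-09).

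The other members of this group spread more widely. The checkpoint protein gene *Mad2l1* kept 45.8% (log2 fold change -1.08) and the checkpoint kinase gene *Ttk*, also called Mps1, kept 45.2% (log2 fold change -1.05). *Aurka*, the spindle pole kinase, kept 49.4% (log2 fold change -0.996). The smallest falls were those of *Bub3*, at 89.0 ± 3.51 RPKM in control and 51.7 ± 1.72 RPKM in knockdown cells (SD, n = 3, 58.1% kept), and of *Bub1*, at 26.4 ± 0.449 and 18.1 ± 0.761 RPKM (SD, n = 3, 68.4% kept). The 95% intervals of the log2 fold changes of *Bub1* (-0.62 to -0.43) and of its partner *Bub1b* (-1.26 to -1.09) did not meet. Both kinases that place checkpoint proteins at the kinetochore, *Bub1* and *Ttk*, fell, but by unlike amounts.

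The partners of Aurkb in the chromosomal passenger complex fell as well (3 of 3). *Birc5*, which encodes survivin and brings the complex to the centromere, read 27.6, 28.4 and 28.6 RPKM in sh-NC and 8.63, 8.25 and 8.68 RPKM in sh-*Etv5* cells. At 30.2% of control it kept the smallest share of all 60 genes (log2 fold change -1.62, SE 0.0441, limma adjusted p = 1.12e-10). *Incenp*, the scaffold that activates the kinase, read 78.1, 76.4 and 78.7 RPKM against 40.0, 40.3 and 39.3 RPKM, 51.3% kept (log2 fold change -0.95, limma adjusted p = 8.55e-10). *Cdca8*, which encodes borealin, read 71.9, 72.8 and 73.8 RPKM against 41.0, 39.8 and 42.3 RPKM, 56.4% kept (log2 fold change -0.81, limma adjusted p = 4.89e-09). The subunits of this complex thus kept between 30.2% and 56.4%, and the interval of *Birc5* (-1.71 to -1.52) lay apart from those of *Incenp* (-1.02 to -0.87) and *Cdca8* (-0.89 to -0.73).

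The centromere and inner kinetochore was the most mixed of the roles. Of its 13 genes 11 were lower, 1 was higher and 1 was not called, with a median log2 fold change of -0.58 and 64.3% of control kept at the median. It also held the lowest log2 fold change of the 60 genes, that of *Cenpa*, although *Birc5* and *Mki67* kept slightly smaller shares. *Cenpa*, the histone H3 variant that marks the centromere, read 89.2, 88.8 and 89.0 RPKM in sh-NC and 28.0, 26.9 and 28.8 RPKM in sh-*Etv5* cells. It kept 31.3% (log2 fold change -1.64, SE 0.0366, limma adjusted p = 2.05e-11), and 62 of the 10738 genes tested had a lower log2 fold change. *Cenpm* read 20.2, 20.2 and 21.3 RPKM against 6.39, 6.62 and 6.82 RPKM, 32.2% kept (log2 fold change -1.50, limma adjusted p = 4.24e-10). *Cenpi*, whose product is with Cenpm in 1 subcomplex of the inner kinetochore, read 6.21, 7.62 and 6.57 RPKM against 3.03, 3.71 and 3.92 RPKM, 52.2% kept (log2 fold change -0.78, limma adjusted p = 1.37e-05). Without *Cenpa*, the median of the remaining 12 genes was -0.49, with 69.2% kept.

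Most other inner kinetochore genes fell by less than the mitosis genes as a whole. *Cenpn* and *Cenpl*, whose products bind the Cenpa nucleosome together, had log2 fold changes of -0.76 and -0.69. *Cenpp* and *Cenpu*, which belong to the subcomplex that also holds Cenpq, had log2 fold changes of -0.70 and -0.33. *Cenph* was at -0.58, and *Cenpc1*, which encodes the scaffold CENP-C, was at -0.36. *Cenpw*, the histone-fold partner of Cenpt, was at -0.41. *Cenpk* was the least firm call of a fall, at 3.07, 4.41 and 4.23 RPKM in sh-NC and 2.92, 3.01 and 2.75 RPKM in sh-*Etv5* cells (log2 fold change -0.32, limma adjusted p = 0.0144). Its groups were parted only by the gap between 3.01 and 3.07 RPKM. The call was lost with no filter (adjusted p = 0.0811) and without sh-NC replicate 2 (adjusted p = 0.0621) or 3 (adjusted p = 0.0563).

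*Cenpt* and *Cenpq* went the other way in value. *Cenpt*, which links centromeric DNA to the Ndc80 complex, read 9.50, 9.87 and 11.0 RPKM in sh-NC and 11.1, 11.4 and 11.8 RPKM in sh-*Etv5* cells, 113% of control. Its groups did not overlap, but by a gap far smaller than the spread within sh-NC (log2 fold change 0.17, 95% interval 0.03 to 0.30, limma adjusted p = 0.0258). The call was lost without sh-NC replicate 1 (adjusted p = 0.106) or 2 (0.0776), without sh-*Etv5* replicate 2 (0.0521) or 3 (0.0669), with no filter (0.0639), and with libraries scaled to the same sum (0.126). *Cenpq* read 9.40, 10.0 and 11.0 RPKM against 10.6, 11.6 and 11.5 RPKM, 111% of control, and its groups overlapped. Its log2 fold change was 0.14 (95% interval -0.00 to 0.28, limma adjusted p = 0.0706). The lower end of that interval lies above the log2 fold change of each of the 58 genes that fell.

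The outer kinetochore, which holds the microtubule, fell throughout (9 of 9, median log2 fold change -0.94, 46.7% kept). *Cenpf*, a large coiled-coil protein of the outer kinetochore, read 13.6, 13.8 and 13.9 RPKM in sh-NC and 4.68, 4.74 and 4.76 RPKM in sh-*Etv5* cells, 34.3% kept (log2 fold change -1.37, limma adjusted p = 9.62e-10). *Knstrn*, which encodes a spindle adaptor that helps chromosomes align, read 26.6, 26.1 and 28.4 RPKM against 11.5, 10.7 and 10.6 RPKM, 40.5% kept (log2 fold change -1.23, limma adjusted p = 2.60e-09). *Nuf2*, a subunit of the Ndc80 complex, read 37.0, 39.2 and 35.2 RPKM against 15.4, 15.0 and 15.5 RPKM, 41.1% kept (log2 fold change -1.23, limma adjusted p = 1.41e-09). None of these 3 genes had overlapping groups, where 42.1% of all genes tested were lower without overlap.

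The Ndc80 complex did not fall evenly. It joins *Nuf2* and *Ndc80* at its microtubule end with *Spc24* and *Spc25* at its kinetochore end. *Ndc80* had a log2 fold change of -0.81 (95% interval -0.91 to -0.71), *Spc24* of -0.66 (-0.78 to -0.54) and *Spc25* of -0.63 (-0.74 to -0.53), and none of these intervals reached that of *Nuf2* (-1.33 to -1.12). *Cenpe*, the kinesin that carries chromosomes to the spindle equator, fell by 0.84 on the log2 scale. The shugoshin genes, whose products shield cohesin at the centromere, both had a log2 fold change of -0.94, at 7.36 ± 0.288 and 3.35 ± 0.314 RPKM for *Sgo1* and 8.42 ± 0.338 and 3.93 ± 0.429 RPKM for *Sgo2a* (SD, n = 3).

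**Figure D2:**
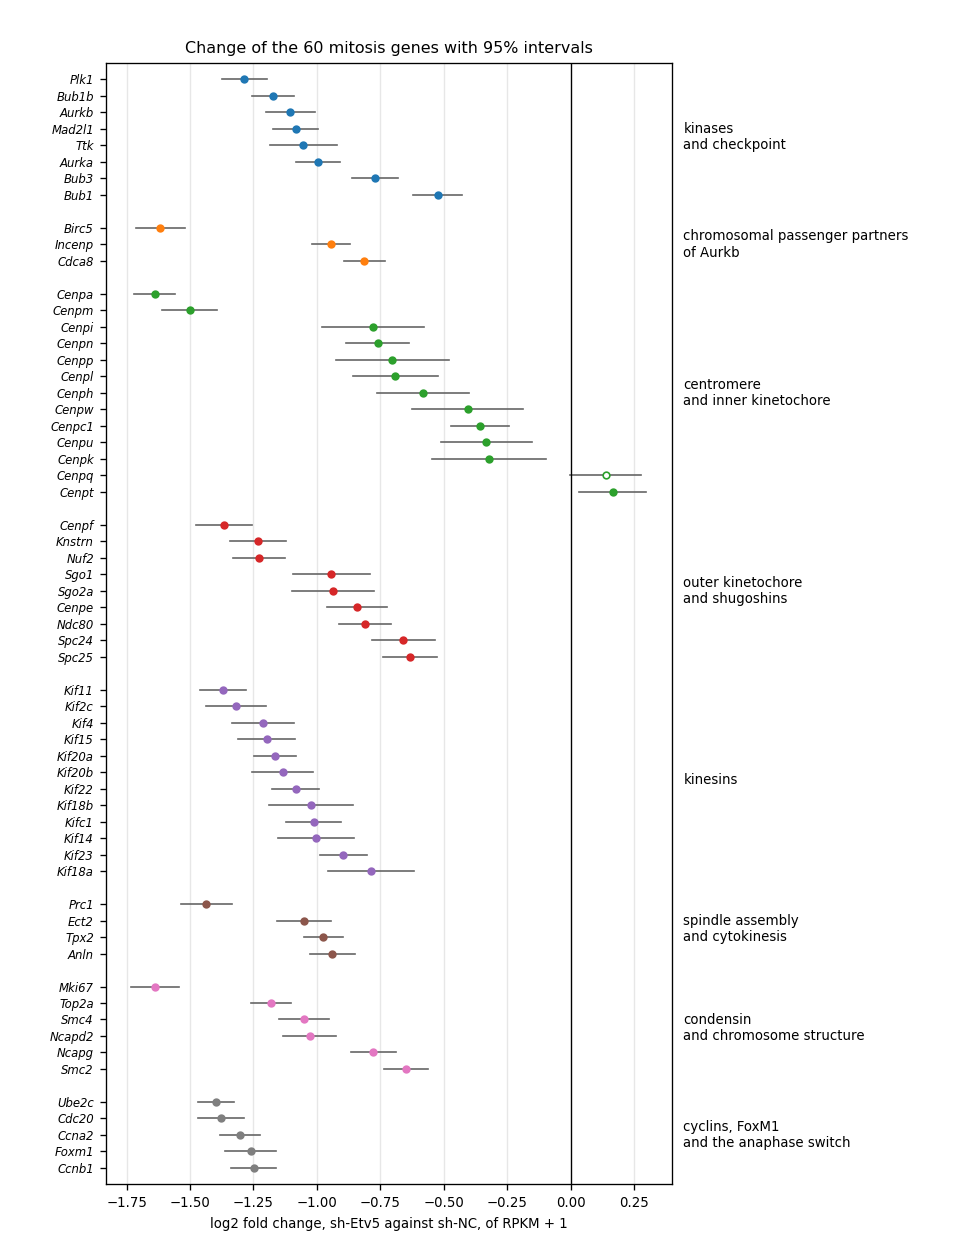
Log2 fold change of sh-*Etv5* against sh-NC on the log2(RPKM + 1) scale with its 95% interval (limma) for the 60 genes, grouped and colored by role, with a line at 0. The open circle is *Cenpq*, which was not called. The centromere and inner kinetochore runs from -1.64 (*Cenpa*) to 0.17 (*Cenpt*), while the kinesins lie between -1.37 and -0.79.

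Kinesins formed a far narrower group than the inner kinetochore. All 12 fell, 10 of them below -1, with a median log2 fold change of -1.11 and 42.9% of control kept, and they ranged only from 36.8% to 52.7%. *Kif11*, the Eg5 motor that pushes the spindle poles apart, read 31.5, 32.1 and 32.0 RPKM in sh-NC and 11.9, 11.8 and 11.5 RPKM in sh-*Etv5* cells (log2 fold change -1.37, SE 0.0406, limma adjusted p = 2.17e-10). *Kif2c*, which encodes the microtubule depolymerase MCAK, read 25.7, 26.0 and 27.1 RPKM against 9.82, 9.35 and 10.7 RPKM, 37.9% kept (log2 fold change -1.32, limma adjusted p = 2.29e-09). *Kif4*, a chromosome-bound kinesin, read 16.0, 16.5 and 16.7 RPKM against 6.32, 6.17 and 6.999 RPKM, 39.7% kept (log2 fold change -1.21, limma adjusted p = 6.24e-09). Groups were well apart for each of these motors.

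The other motors are given by task. The spindle motor gene *Kif15* kept 40.3%, the chromosome-arm motor gene *Kif22* 45.8% and the minus-end motor gene *Kifc1* 48.0%. Among the motors of the midzone and cytokinesis, *Kif20a* kept 43.4%, *Kif20b* 42.5%, *Kif14* 42.1% and *Kif23* 52.7%. *Kif18a*, which dampens the swings of chromosomes at the spindle equator, kept 52.1%, and *Kif18b*, which shortens astral microtubules, kept 46.6%. The smallest falls were those of *Kif18a* (log2 fold change -0.79, 95% interval -0.96 to -0.62) and *Kif23* (-0.90, -0.99 to -0.80), and neither interval met that of *Kif11* (-1.46 to -1.28).

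The genes of spindle assembly and cytokinesis all fell (4 of 4, median log2 fold change -1.01, 48.0% kept). *Prc1*, which bundles midzone microtubules, read 38.2, 40.9 and 42.0 RPKM in sh-NC and 14.2, 14.6 and 14.1 RPKM in sh-*Etv5* cells, 35.4% kept (log2 fold change -1.44, limma adjusted p = 3.37e-10). *Ect2*, the exchange factor that turns on RhoA at the cleavage furrow, read 22.6, 22.8 and 23.2 RPKM against 9.97, 10.9 and 10.7 RPKM, 46.0% kept (log2 fold change -1.05, limma adjusted p = 5.39e-09). *Tpx2*, the activator of Aurora A on the spindle, read 56.8, 57.0 and 55.8 RPKM against 27.9, 28.3 and 28.6 RPKM, 49.99% kept (log2 fold change -0.98, limma adjusted p = 8.79e-10). *Prc1* stood below the others, whose shares lay close together, with *Anln*, the anillin of the contractile ring, at 51.0%.

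Condensin and the other chromosome structure genes fell too (6 of 6, median log2 fold change -1.04, 47.5% kept). *Mki67*, whose product Ki-67 coats mitotic chromosomes and is used as a mark of cycling cells, read 73.6, 73.7 and 75.7 RPKM in sh-NC and 22.7, 24.6 and 22.4 RPKM in sh-*Etv5* cells. It kept 31.3% (log2 fold change -1.64, SE 0.0425, limma adjusted p = 7.52e-11). *Top2a*, the topoisomerase that untangles sister chromatids, read 106, 109 and 109.9 RPKM against 46.0, 48.9 and 46.8 RPKM, 43.6% kept (log2 fold change -1.18, limma adjusted p = 2.54e-10). *Smc4*, an ATPase of condensin, read 42.4, 43.9 and 45.5 RPKM against 19.9, 20.5 and 21.7 RPKM, 47.1% kept (log2 fold change -1.05, limma adjusted p = 3.70e-09). Its partner *Smc2* kept more, 62.7% (log2 fold change -0.65, 95% interval -0.74 to -0.56, against -1.15 to -0.95 for *Smc4*). The condensin I subunits *Ncapd2* and *Ncapg* had log2 fold changes of -1.03 and -0.78. The condensin genes alone thus kept 47.1% to 62.7%, more than *Mki67* and *Top2a*.

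Cyclins, FoxM1 and the anaphase switch formed the role with the lowest median (5 of 5 lower, all below -1, median log2 fold change -1.30, 39.7% kept). *Ube2c*, the ubiquitin-conjugating enzyme of the anaphase-promoting complex, had the highest RPKM of the 60 genes and read 166, 163 and 166 RPKM in sh-NC and 62.9, 60.3 and 62.7 RPKM in sh-*Etv5* cells, 37.6% kept (log2 fold change -1.40, SE 0.0327, limma adjusted p = 3.11e-11). *Cdc20*, the activator of that complex and the target of the checkpoint, read 104, 96.1 and 100.4 RPKM against 37.1, 39.6 and 37.2 RPKM, 37.9% kept (log2 fold change -1.38, limma adjusted p = 2.41e-10). *Ccna2*, which encodes cyclin A, read 73.6, 70.3 and 72.6 RPKM against 28.9, 28.6 and 28.5 RPKM, 39.7% kept (log2 fold change -1.30, limma adjusted p = 1.04e-10). *Ccnb1*, which encodes cyclin B, went from 67.5 ± 0.577 to 27.8 ± 1.28 RPKM (SD, n = 3), and *Foxm1*, a transcription factor of G2 and mitosis genes, from 35.3 ± 0.282 to 14.2 ± 0.761 RPKM. The 5 genes kept 37.6% to 41.2%, the narrowest range of any role, and the 95% intervals of their log2 fold changes overlapped each other.

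The role groups thus ran from -1.30 (cyclins, FoxM1 and the anaphase switch) over -1.11 (kinesins), -1.07 (kinases and checkpoint), -1.04 (condensin and chromosome structure), -1.01 (spindle assembly and cytokinesis), -0.95 (partners of Aurkb) and -0.94 (outer kinetochore and shugoshins) to -0.58 (centromere and inner kinetochore) in median log2 fold change. This order depends in part on the pseudocount of 1. With a pseudocount of 0.01 the outer kinetochore and shugoshins stood at -1.10. That is below condensin and chromosome structure (-1.07), spindle assembly and cytokinesis (-1.06) and the partners of Aurkb (-0.96). No test of the differences between roles was made, since genes are not replicates. Of the 13 inner kinetochore genes, 10 kept more of their control level than any kinesin did.

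Expression level moved with the change. Across the 60 genes, the log2 of the mean sh-NC RPKM was set against the log2 fold change of RPKM + 1. The sh-NC level enters both quantities, so they are not independent. Pearson's r was -0.55 and Spearman's rho -0.53, as a description over genes that share the same 6 libraries. With a pseudocount of 0.01 in place of 1 in the fold change, these values were -0.45 and -0.40. The 38 genes with at least 20 RPKM in sh-NC cells kept 45.7% at the median and all fell, and the 22 genes below that level kept 52.8% and included all but *Cenpa* and *Cenpm* of the inner kinetochore. The part of the level in the order of the roles was not tested.

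**Figure D3:**
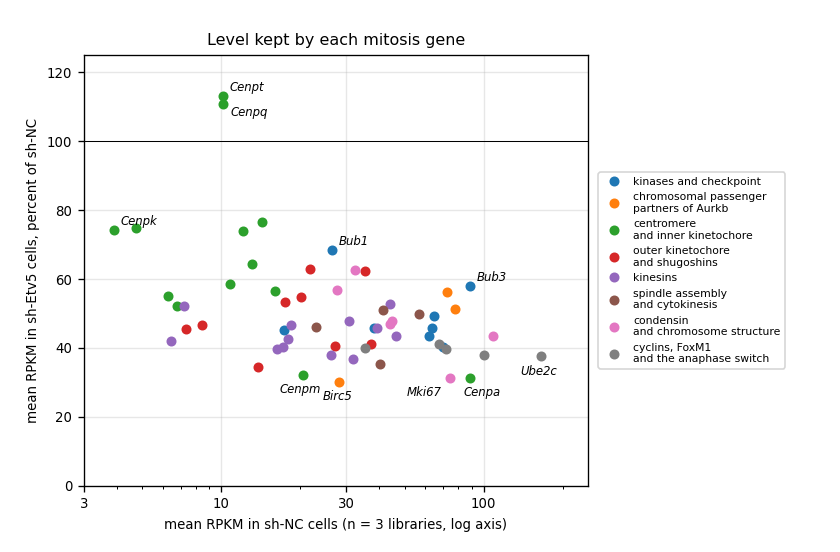
Mean RPKM in sh-*Etv5* cells as a percent of the sh-NC mean (n = 3 libraries each) against the mean sh-NC RPKM (log axis) for the 60 genes, colored by role. Most genes lie between 30.2% and 64.3%, and *Cenpt* (113%) and *Cenpq* (111%) are the members above the line at 100%.

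Sequence shared with other genes could touch 12 of the 60 values, since whether the authors' counting used the strand is not given in the sources used here. Of the exon bases of *Sgo2a*, *Kif20a*, *Cenpu*, *Ube2c* and *Kif4*, 35.04%, 29.3%, 26.7%, 22.8% and 15.1% lie opposite exons of *Kctd18*, *Cdc23*, *Primpol*, *Tnnc2* and *Pdzd11*. Of *Kifc1*, *Ccnb1* and *Cdc20*, 39.7%, 23.4% and 10.4% of all 50-base stretches occur in other genes. The remaining 4 are *Ncapg*, *Cenpp*, *Ccna2* and *Prc1*, with 13.4%, 12.6%, 12.5% and 11.1% of exon bases opposite another gene. Among the 48 genes with less than 10% of either, 46 were lower and 1 higher, with a median log2 fold change of -0.9998.

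The rest of the mitotic machinery, 100 further genes, fell less far. Of these, 86 were lower, 3 higher and 11 not called, with a median log2 fold change of -0.61, and 16 were lower with a log2 fold change below -1. Over all genes tested, 41.0% were lower, 33.3% higher and 3.0% lower below -1. Cdk1 and its regulators had a median of -0.71 (16 of 19 lower), led by *Cks2*, a small Cdk-binding protein, at -1.63, and *Ccnf*, which encodes cyclin F, at -1.50. The other spindle, centrosome and cytokinesis genes had a median of -0.82 (19 of 20 lower), led by *Aspm*, the spindle pole protein, at -1.66, and *Nusap1*, a microtubule bundler, at -1.34.

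The remaining complexes were lower by smaller amounts. The anaphase-promoting complex and its regulators had a median log2 fold change of -0.34 (15 of 19 lower), and its largest falls were those of *Espl1*, which encodes separase, at -1.47, and *Fbxo5*, which encodes the inhibitor Emi1, at -1.07. Cohesin had a median of -0.48 (11 of 14 lower), led by *Rad21*, the subunit that separase cleaves, at -1.05, and *Pds5b*, a regulator of cohesin, at -0.82. The 4 other condensin subunits all fell (median -0.62), led by *Ncaph* at -0.95 and *Ncaph2* at -0.63. The other kinetochore and checkpoint genes had a median of -0.66 (21 of 24 lower), led by *Knl1*, the docking site of Bub1 and Bub3, at -1.32, and *Ska2*, of a microtubule-binding complex, at -1.04.

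The genes that rose among these 100 were *Zw10*, *Zwint* and *Lin52*, named after their values were seen. *Zw10*, which recruits dynein to the kinetochore and also acts in transport between the endoplasmic reticulum and the Golgi, read 54.6, 56.2 and 54.6 RPKM in sh-NC and 80.7, 81.8 and 82.9 RPKM in sh-*Etv5* cells. That is 148% of control with no overlap (log2 fold change 0.56, limma adjusted p = 4.80e-08). *Zwint*, its kinetochore partner, read 20.4, 20.3 and 20.04 RPKM against 29.5, 28.1 and 30.7 RPKM, 145% of control (log2 fold change 0.52, limma adjusted p = 9.26e-07). *Lin52*, a subunit of the MuvB core, read 3.36, 3.74 and 3.04 RPKM against 3.71, 4.41 and 4.35 RPKM, with overlapping groups (log2 fold change 0.24, limma adjusted p = 0.0230).

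Genes of the preceding phase fell as well. Of 35 genes of DNA replication and its licensing, 33 were lower, where 41.0% of all genes tested were, and *Orc1* (95% interval of the log2 fold change -0.04 to 0.21) and *Ccne1* were not called. Their median log2 fold change was -0.62, and 5 were below -1, as were 3.0% of all genes tested. The largest falls were those of *Tk1*, thymidine kinase, at -1.33, and *Rfc5*, a clamp loader subunit, at -1.14. *Ccne1*, which encodes cyclin E of the entry into S phase, read 18.2, 17.2 and 18.7 RPKM in sh-NC and 18.6, 16.9 and 19.1 RPKM in sh-*Etv5* cells (95% interval of the log2 fold change -0.11 to 0.13). The S-phase median lay close to that of the 100 further mitotic genes and above that of the 60.

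**Figure D4:**
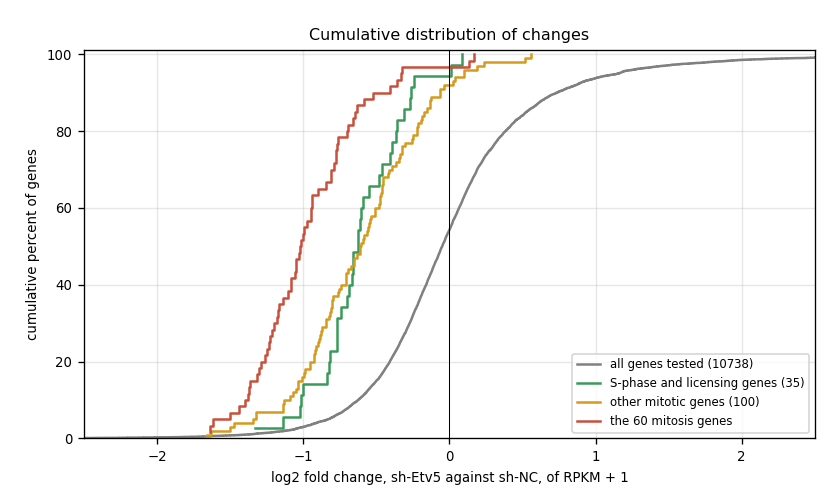
Cumulative share of genes (vertical axis, percent) against log2 fold change of sh-*Etv5* over sh-NC for the 60 mitosis genes, the 100 further mitotic genes, the 35 S-phase genes and all 10738 genes tested. The curve of the 60 genes lies farthest to the left (median -1.02), followed by the other lists (-0.61 and -0.62) and all genes (-0.05).

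The promoters were then searched as a whole. RefSeq promoter windows of 300 bases (250 before to 50 after the start) were used for 52 of the 60 genes. No window was listed for *Ccna2*, *Incenp*, *Tpx2*, *Aurkb*, *Smc4*, *Spc24* and *Foxm1*, which are thus missing from all motif counts, also those by role. Chromosome 18, on which *Kif20a* lies, was left out of all promoter counts. A CHR match was present in 36 of 52 (69.2%), against 21.7% of all 27025 genes with a listed promoter and 16.7% of the 8317 of these that were tested. A CCAAT match was present in 40 of 52 (76.9%), against 41.1% of all genes. Both were present in 31 of 52 (59.6%), against 9.65% of all genes. The ETS core CCGGAA, searched on both strands because Etv5 is an ETS factor, was present in 26 of 52, against 16.7% of all genes and 34.8% of those tested.

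Roles differed in these counts. A CHR match was found in 10 of 11 kinesin promoters, 6 of 7 of the kinases and checkpoint and 5 of 5 of condensin and chromosome structure, but in 4 of 8 of the outer kinetochore and 5 of 13 of the inner kinetochore, where CCAAT was found in 11 of 13. Mitosis genes with a CHR match had a median log2 fold change of -1.04 (36 genes) and those without of -0.78 (16 genes). Over all tested genes with a listed promoter the medians were -0.09 with and -0.04 without. Role was not held fixed in these medians. Outside the inner kinetochore, *Birc5*, *Ccnb1*, *Knstrn*, *Nuf2* and *Mad2l1* had no match and lay at -1.62, -1.25, -1.23, -1.23 and -1.08. The others there without a match, *Sgo2a*, *Cenpe* and *Kif18a*, lay at -0.94, -0.84 and -0.79. Genes there with a match ran from -1.64 (*Mki67*) to -0.52 (*Bub1*). The part of the role in the difference was not tested. For CCGGAA the medians of the mitosis genes were -0.94 with and -1.07 without a match (26 genes each), and over all tested genes -0.06 and -0.05. None of the 3 elements was in the windows of *Birc5*, *Knstrn*, *Mad2l1* and *Cenpp*, which fell (log2 fold changes of -1.62, -1.23, -1.08 and -0.70), or of *Cenpt*. A match is a run of letters and not a bound site, and a window without one says only that these letters are not in it.

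**Figure D5:**
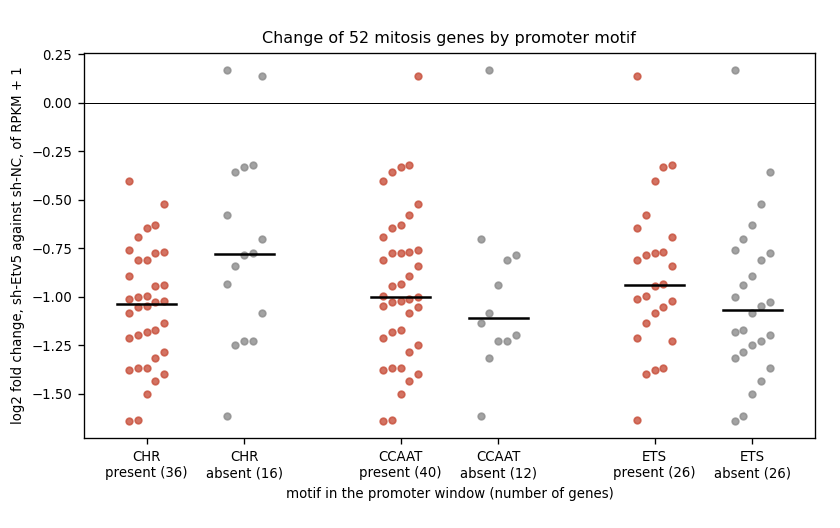
Log2 fold change (vertical axis, on RPKM + 1) of the 52 mitosis genes with a RefSeq promoter window, split by whether the 300 bases hold a CHR, a CCAAT or a CCGGAA (ETS) match, with 1 point per gene and a bar at the median. Genes with a CHR match sit lower at the median (-1.04) than those without (-0.78). Outside the inner kinetochore, genes without a CHR match run from -1.62 (*Birc5*) to -0.79 (*Kif18a*). Those with a match run there from -1.64 (*Mki67*) to -0.52 (*Bub1*). For CCAAT (-0.9998 and -1.11) and CCGGAA (-0.94 and -1.07) the order is the other way. Role is not held fixed in these splits.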

How the data were processed

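Polyadenylated RNA of 3 sh-NC and 3 sh-*Etv5* Raw264.7 libraries was measured, and groups were taken from the sample labels. The authors deposited 1 RPKM value per gene symbol and library, scaled by gene length and mapped reads and not log transformed. The submitters' processing notes name the build mm10, while the aligner, the annotation and the use of strand are not given in the sources used here. Low values shared no common step, whole reads could not be recovered, the depth of the libraries is unknown, and their number limits the precision.

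Genes that reached 1 RPKM in 3 or more libraries entered the fit, which was made on log2(RPKM + 1) by limma 3.58.1 (R 4.3.3) with trended eBayes, two-sided and without covariates, with Benjamini-Hochberg adjustment over all genes tested. Fold changes on this scale understate those of low genes. With 3 libraries against 3, an exact permutation test of a single gene cannot go below p = 0.1, so none was run. Positions and overlaps came from GENCODE release M21 on GRCm38, and promoters and synonyms from RefSeq (GRCm38.p6). Lists were described by counts and medians, with no set test. Scripts were run in Python 3.11.15 (pandas 2.3.3, NumPy 2.4.6, SciPy 1.17.1, matplotlib 3.10.9), and the limma step was tested on simulated data.

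The mitosis genes, the further lists and the tests were chosen with earlier results of these data known. Values per library are given for the 3 genes of each role with the largest absolute log2 fold change, for *Mki67* and for called genes that went against the majority, and mitosis genes not called are given with their interval. Of each further list, the 2 called genes with the largest absolute log2 fold change are named. *Cenpk*, *Zw10*, *Zwint*, *Lin52* and *Ccne1* were added after the values were seen. The alternatives were no filter, a mean of at least 5 RPKM, pseudocounts of 0.1 and 0.01, libraries scaled to the same sum (also outside the top 10 genes) or median, quantile normalization, no trend, a replicate block, each library left out, and log2 fold change thresholds of 0.5 and 1. The count without genes of shared sequence was added after seeing the data.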

Additional observations from a re-analysis of the deposited data

How the results depend on the processing

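The direction of the median held under each alternative, and 57 of the 58 falling genes kept their call under each of the 16 other scalings, filters and fits that tested them, the exception being *Cenpk*. The log2 fold changes of the 60 genes and of *Etv5* kept their sign under each of them. That of *Ccne1*, which was not called, ran from -0.05 to 0.06. The median log2 fold change of the 60 genes was -1.09 and -1.11 with pseudocounts of 0.1 and 0.01, and -1.08 with libraries scaled to the same sum. With a threshold on the log2 fold change, 54 genes were lower beyond 0.5 and 32 beyond 1. The count of higher genes, 1 as reported (*Cenpt*), was 0 with no filter, with the same sum and beyond a log2 fold change of 0.5 or 1, 2 with quantile normalization, and 0 to 2 when 1 library was left out. *Cenpq* is the gene that came in where 2 were higher. It had an adjusted p of 0.0470 with quantile normalization, 0.0225 without sh-NC replicate 3 and 0.0401 without sh-*Etv5* replicate 1. Replicate numbers did not pair the libraries, since same-numbered libraries deviated from their group means with correlations of 0.0739, -0.0710 and -0.0352. With the replicate block, 58 genes were lower and 2 higher (*Cenpq*, adjusted p = 0.0448), and 86 of the 100 further mitotic genes were lower and 3 higher. The depth is unknown, so that low genes such as *Cenpk* carry an error that only the libraries show.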

Other observations

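Subunits of the same complex outside the 60 genes can be set beside their partners. *Cenps* and *Cenpx*, the histone-fold partners that join Cenpt and Cenpw, had log2 fold changes of -0.88 (limma adjusted p = 1.89e-06) and -0.59 (limma adjusted p = 1.41e-06), where *Cenpw* fell by 0.41 and *Cenpt* stood at 0.17. *Cenpo*, of the subcomplex that holds Cenpp, Cenpq and Cenpu, went from 5.03 ± 0.308 to 4.28 ± 0.0919 RPKM (SD, n = 3, log2 fold change -0.19, limma adjusted p = 0.0171). In the Mis12 complex, which ties the inner to the outer kinetochore, *Pmf1* kept 52.7% of its control level, *Nsl1* 65.2%, *Dsn1* 67.4% and *Mis12* 87.1%. All 4 were called lower, and the 95% intervals of *Pmf1* (-1.01 to -0.81) and *Mis12* (-0.30 to -0.07) did not meet. In condensin II, *Ncapg2* kept 63.4% and *Ncapd3* 68.6%. These genes were named after their values were seen.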
